A study of Homo sapiens with 6 samples.

Results

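The nuclear genes for the structural subunits of the respiratory chain and ATP synthase were followed in H2170 cells, an established human lung squamous cell carcinoma line. Members were protein-coding genes whose symbols begin NDUFA, NDUFB, NDUFC, NDUFS, NDUFV, SDHA to SDHD, UQCR, COX4 to COX8 or ATP5, without assembly factors and pseudogenes. The rule found 90 of the 61487 gene rows: 37 of complex I, 4 of complex II, 9 of complex III, 19 of complex IV, 19 of complex V and 2 readthrough loci that join a member to its neighbour. NDUFA4 was placed in complex IV, where its protein works in spite of its name. NDUFA4L2 was placed there only as the paralogue of NDUFA4. A complex III subunit whose symbol has none of these prefixes is not a member and is counted with the electron carriers below. Polyadenylated RNA was sequenced from cells with ACK1(IDRmut)-GFP (IDRmut), cells with ACK1(WT)-GFP (WT) and cells with GFP alone (Control), 2 libraries each. ACK1, the product of TNK2, is a tyrosine kinase of the cytoplasm, and IDRmut is the label of a mutant form whose altered residues are not spelled out. GFP was present in all 3 groups. Which promoter drove the transgenes, and whether cells were clones or pools, is not stated. Nothing in the labels says that the 2 libraries of a group were separate cultures, and the p-values then reflect library-to-library spread alone, which may be technical.

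The respiratory chain sits in the inner mitochondrial membrane. Complex I oxidises NADH and complex II oxidises succinate, both pass electrons through ubiquinone to complex III, and cytochrome c carries them to complex IV, where oxygen is reduced. The proton gradient that complexes I, III and IV build drives ATP synthase, also called complex V. Most subunits are encoded in the nucleus and imported, while a smaller set, including catalytic subunits of complexes I, III and IV, is encoded in mitochondrial DNA. RNA levels say nothing of the amount or activity of the assembled complexes, which were not measured here.

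Library totals ran between 19128111 and 33540998 counts, and the second WT library was the deepest. TNK2, the check of the labels, stood at 1762 and 1455 CPM (counts scaled to a common library size) in IDRmut, 3514 and 3613 CPM in WT, and 41.1 and 43.1 CPM in Control. The ACK1 transcript was therefore higher in both arms than in Control, and lower in IDRmut than in WT by 1.15 ± 0.058 on the log2 scale (SE). The mutation and the lower transcript level cannot be told apart in any comparison of IDRmut with WT. Of 7 squamous or basal markers, TP63, SOX2, KRT5, KRT6A and KRT14 were detected, while EPCAM and CDH1 had at most 4 counts in any library. The summed level of these markers was 79.5% and 72.9% of the Control mean in IDRmut, 51.9% and 50.6% in WT, and 100.2% and 99.8% in Control. That sum follows KRT14, whereas TP63 and KRT6A were higher in both arms than in Control, KRT6A at 100.1 and 93.7 CPM in IDRmut, 44.1 and 46.3 CPM in WT, and 28.6 and 28.7 CPM in Control. The leukocyte sum of 5 markers was at most 0.343 CPM in any library, with CD3E at 0. The fibroblast sum of 5 markers ran between 668 and 912 CPM, nearly all from COL1A2, with DCN at no more than 4 counts. The endothelial sum of 4 markers was 99.5 and 96.5 CPM in IDRmut, 46.3 and 47.5 CPM in WT, and 218 and 224 CPM in Control, nearly all from CDH5. The part of these marker differences in the results below was not tested.

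Of the 90 members, 82 had enough counts to be tested. The other 8 were the readthrough loci NDUFC2-KCTD14 and ATP5MF-PTCD1, the tissue isoforms COX4I2, COX6A2, COX6B2, COX7A1 and COX8C, and the paralogue ATP5MGL. Level per length, in CPM per kilobase of exon, differed widely between members. The highest was ATP5F1B, the catalytic beta subunit of ATP synthase, at a mean of 356 in IDRmut, 352 in WT and 379.7 in Control. NDUFS5, an accessory subunit of the membrane arm, led complex I at 239 in IDRmut, 241 in WT and 261 in Control. COX8A, a small subunit of cytochrome c oxidase, led complex IV at 205 in IDRmut, 200.5 in WT and 246 in Control. UQCRH, the hinge protein beside cytochrome c1, led complex III at 93.5 in IDRmut, 89.7 in WT and 98.3 in Control. SDHB, the iron-sulfur subunit of succinate dehydrogenase, led complex II at 46.8 in IDRmut, 45.4 in WT and 48.9 in Control. At the other end, some essential subunits were counted far lower than their partners, such as NDUFA7 with 8 to 22 counts a library, NDUFV2 with 30 to 58, and SDHA with 165 to 264. The part of overlapping or multiply matching reads in these low counts was not tested. NDUFA7 and NDUFV2 have 33.5% and 28.4% of their exon bases overlapped by other genes, while SDHA has none. The pseudogene row named for NDUFV2 had a mean of 2.24 CPM over all libraries, beside 1.96 CPM for NDUFV2 itself. Pseudogenes of SDHA were not looked up, so the lack of overlap does not show that its reads match nowhere else.

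Most members changed little. Against Control, 4 members rose and 12 fell in IDRmut, at an edgeR adjusted p under 0.05 across all genes tested. These counts are 4.88% and 14.6% of the 82 members, and of all 16591 genes tested 15.6% rose and 15.9% fell. In WT, 7 members rose and 24 fell against Control, which is 8.54% and 29.3% of members, while 17.4% and 17.6% of all genes did. Between the arms, 10 members rose and 3 fell in IDRmut over WT, which is 12.2% and 3.66% of members, while 12.3% and 14.2% of all genes did. The share of members that fell in WT was thus above the background and the share that rose was below it, whereas the share that fell in IDRmut over Control was near the background. With an offset for gene length and GC content, that last share was 25.6%, against 18.9% of all genes. Only COX7B2 and NDUFA4L2 were called with a change of over 2-fold in any of these comparisons. Members were more abundant than the typical gene, with a median of 53.8 CPM against 16.8 CPM over all genes tested. In IDRmut and Control 13 members had libraries that stood apart with IDRmut higher and 27 with IDRmut lower, while 32.0% and 31.3% of all genes did so. For WT and Control these counts were 13 and 43, with 34.6% and 34.7% of all genes, and for IDRmut and WT they were 21 and 10, with 30.1% and 31.4%.

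The median log2 fold change of the 82 members was -0.017 in IDRmut over Control, 0.014 with upper-quartile scaling and 0.023 with library totals only. These scalings move all genes alike, and the median over all genes tested was 0.035 and 0.044 under them, so the members' median stayed 0.021 below that of all genes under each of the 3 scalings. The median in WT over Control was -0.078, and it was -0.046 and -0.013 under the same 2 alternatives. In IDRmut over WT it was 0.032. All genes tested had a median of 0.0040 in IDRmut over Control, 0.0017 in WT over Control and -0.00068 in IDRmut over WT. Relative to that background, the members' median in WT over Control lay 0.079 lower under each of these scalings. The share of members that fell in WT was then no longer far from the background, at 12.2% against 11.6% of all genes, with library totals only. With these totals 11 members rose and 10 fell in WT, so that 52.4% of their calls were higher, against 22.6% with TMM scaling, while the share over all genes was 67.2% against 49.8%. In IDRmut over Control 25% of the members' calls were higher, against 38.5% with upper-quartile scaling and 41.7% with library totals, and over all genes these shares were 49.5%, 58.1% and 60.2%. In IDRmut over WT 76.9% of the members' calls were higher, against 61.5% with library totals, and over all genes 46.5% and 38.5%.

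**Figure D1:**
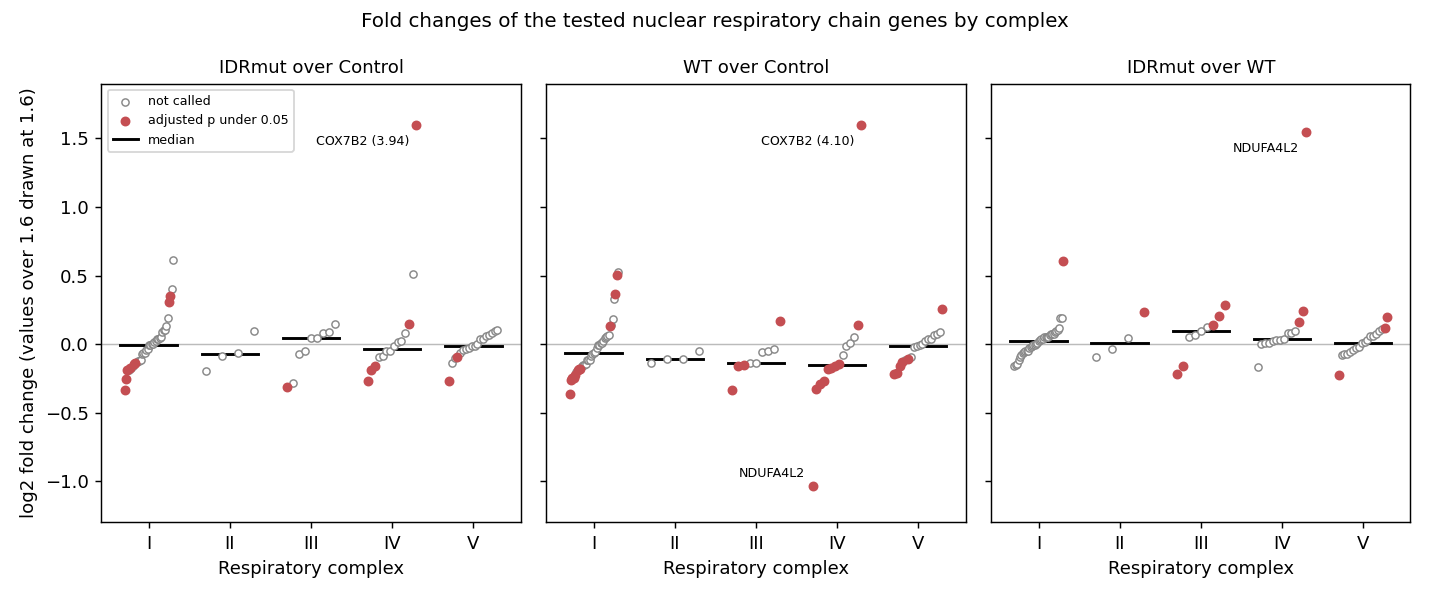
Log2 fold change (vertical axis, TMM-scaled) of the 82 tested members by respiratory complex in IDRmut over Control, WT over Control and IDRmut over WT; filled points passed an adjusted p of 0.05 and bars are medians. Most points lie close to 0, COX7B2, drawn at the upper limit of the axis for its values of 3.94 and 4.10, stands far above the rest in both arms against Control, and NDUFA4L2 is the lowest point in WT over Control and the highest in IDRmut over WT.

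These counts moved with single libraries. In IDRmut over Control, the share of members that fell lay below that of all genes without either Control library. It was near that of all genes without the first IDRmut library and above it without the second. The members' median minus that of all genes was -0.042 and -0.028 without the first and second Control library. It was -0.017 and -0.033 without the first and second IDRmut library. In WT over Control, the share of members that fell stayed above that of all genes without either WT library. The members' median minus that of all genes was -0.099 and -0.089 without the first and second Control library. It was -0.083 and -0.078 without the first and second WT library. Calls over members and calls over all genes were fewer without a Control or WT library, but not without the first IDRmut library. Without the first Control library 12.2% of members fell in WT against 11.2% of all genes, so the excess of lower members was nearly gone there, and without the second it was 17.1% against 11.8%. In IDRmut over WT, the share of members that rose lay below that of all genes without either WT library or the second IDRmut library. It lay above that of all genes without the first IDRmut library. The members' median minus that of all genes was 0.037 and 0.011 without the first and second WT library. It was 0.048 and 0.027 without the first and second IDRmut library. The members called under every alternative that tested them were fewer. For IDRmut over Control these were COX7B2 and NDUFB10, higher, and ATP5MF, NDUFB2 and UQCRC1, lower. For WT over Control they were ATP5IF1, COX7B2 and NDUFB10, higher, and ATP5F1A, COX6A1, NDUFA12, NDUFA4 and NDUFS1, lower. For IDRmut over WT they were NDUFA4L2, SDHD and UQCRC2, higher, and ATP5IF1 and UQCRQ, lower. The 2 IDRmut libraries also differed from each other along GC content. Across the 82 members the Spearman correlation of GC content with the log2 difference of the second IDRmut library from the first was -0.383, and it was 0.0124 for the WT pair and 0.0875 for the Control pair. The median absolute log2 difference between the 2 libraries of a group was 0.0944 over members in IDRmut, 0.0517 in WT and 0.0520 in Control.

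Complex I subunits changed by small amounts and in both directions, with membrane-arm genes on either side. In complex I, 2 of 37 subunits rose and 6 fell in IDRmut over Control (5.41% and 16.2%, against 15.6% and 15.9% of all genes). In WT over Control 3 rose and 8 fell (8.11% and 21.6%, against 17.4% and 17.6% of all genes). With library totals only these counts were 3 and 3 of 37 in IDRmut, where 19.3% of all genes rose and 12.7% fell. In WT they were 5 and 4, where 23.8% of all genes rose and 11.6% fell. The complex's median in IDRmut over Control was -0.0058, and 0.034 with these totals, under which the median of all genes was 0.044. NDUFB10, an accessory subunit of the membrane arm (ENSG00000140990; GRCh38 chromosome 16, 1959508 to 1961975, plus strand), had 39.6 and 44.8 CPM in IDRmut, 48.6 and 45.7 CPM in WT, and 32.9 and 33.5 CPM in Control. Both arms lay above Control without overlap. The log2 fold change was 0.35 ± 0.068 in IDRmut (SE; edgeR adjusted p = 0.000766) and 0.50 ± 0.065 in WT (edgeR adjusted p = 1.2e-05). NDUFB1, another subunit of that arm, had 16.2 and 17.3 CPM in IDRmut, 17.0 and 17.9 CPM in WT, and 12.6 and 14.6 CPM in Control, with log2 fold changes of 0.30 and 0.37. NDUFS8, an iron-sulfur subunit on the path to ubiquinone, was called in WT only, with 76.0 and 74.4 CPM in IDRmut, 75.2 and 77.9 CPM in WT, and 69.2 and 71.0 CPM in Control. Its log2 fold change was 0.10 in IDRmut (edgeR adjusted p = 0.122) and 0.13 in WT (edgeR adjusted p = 0.0384), a call kept in 7 of 14 alternatives.

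Among the subunits that fell, NDUFA12, an accessory subunit of the NADH-oxidising N module, had 37.1 and 40.0 CPM in IDRmut, 37.3 and 34.7 CPM in WT, and 45.0 and 47.2 CPM in Control. Its log2 fold change was -0.26 ± 0.062 in IDRmut (edgeR adjusted p = 0.00421) and -0.36 ± 0.061 in WT (edgeR adjusted p = 0.000169). NDUFS1, the largest core subunit of that module and a carrier of iron-sulfur clusters, had 157 and 158 CPM in IDRmut, 151 and 153 CPM in WT, and 174 and 172 CPM in Control. The log2 fold changes were -0.14 and -0.19, a small shift with groups that did not overlap. Of the 8 N module subunits 3 fell in IDRmut, the other one being NDUFS6 at -0.17, and 2 fell in WT. NDUFB2, a small membrane-arm subunit, had 45.4 and 42.4 CPM in IDRmut, 48.3 and 45.0 CPM in WT, and 57.4 and 53.0 CPM in Control. Its log2 fold change was -0.33 ± 0.061 in IDRmut (edgeR adjusted p = 0.000483) and -0.25 ± 0.059 in WT (edgeR adjusted p = 0.00332), and 35.9% of its exon bases are shared with neighbours. NDUFB11, also of the membrane arm and with 44.9% of its exon bases overlapped by RBM10, had a log2 fold change of -0.19 in either arm. Of the 8 Q module subunits, which carry electrons to ubiquinone, NDUFS3 fell by 0.14 in IDRmut and 0.18 in WT on the log2 scale. NDUFA5 and NDUFS7 of the same module, and NDUFA11 of the membrane arm, fell in WT over Control, by 0.25, 0.27 and 0.23. The calls of NDUFS3 and NDUFS6 in IDRmut, and of NDUFS7 and NDUFA11 in WT, were lost in most alternatives. Between the arms 1 subunit of 37 was called (2.7%), while 12.3% of all genes rose and 14.2% fell. NDUFV2, a core subunit of the N module, had 2.31 and 2.59 CPM in IDRmut, 1.47 and 1.70 CPM in WT, and 1.88 and 1.83 CPM in Control. The log2 fold change in IDRmut over WT was 0.61 ± 0.20 (edgeR adjusted p = 0.0344), and the call was lost without either WT library, without the second IDRmut library and with DESeq2. The part of reads shared with its pseudogene, at a mean of 2.24 CPM over all libraries, was not tested.

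None of the 4 complex II genes was called against Control by edgeR or by DESeq2. At an unadjusted edgeR p under 0.05, 0 passed in IDRmut and 2, SDHB and SDHD, were lower in WT. With upper-quartile scaling, and with library totals only, 1 was higher in IDRmut at that threshold and 0 passed in WT. SDHD, a membrane anchor of succinate dehydrogenase, had 74.5 and 82.3 CPM in IDRmut, 65.7 and 67.7 CPM in WT, and 74.2 and 72.8 CPM in Control. WT lay below both other groups, and IDRmut over WT gave a log2 fold change of 0.23 ± 0.051 (edgeR adjusted p = 0.00274), while against Control the values were 0.09 in IDRmut (edgeR adjusted p = 0.191) and -0.14 in WT (edgeR adjusted p = 0.0521). SDHB had 112 and 119 CPM in IDRmut, 115 and 109 CPM in WT, and 119.5 and 121 CPM in Control. SDHC, the other anchor, had 65.7 and 70.7 CPM in IDRmut, 68.9 and 71.0 CPM in WT, and 71.5 and 73.7 CPM in Control. The flavoprotein SDHA, which holds the succinate site, had 8.10 and 8.14 CPM in IDRmut, 9.99 and 7.72 CPM in WT, and 9.28 and 9.36 CPM in Control. Changes in these 3 genes did not pass the test in any comparison.

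Complex III had the most calls for its size between the arms, with 3 of 9 genes higher and 2 lower in IDRmut over WT. These were 33.3% and 22.2%, against 12.3% and 14.2% of all genes, and with DESeq2 1 was higher and 2 lower. The core proteins of this complex moved in opposite directions between the arms. UQCRC1 (ENSG00000010256; chromosome 3, 48599002 to 48610976, minus strand), a core protein on the matrix side, had 244 and 238 CPM in IDRmut, 269 and 271 CPM in WT, and 297 and 302 CPM in Control. The 3 groups did not overlap. The log2 fold change was -0.31 ± 0.036 in IDRmut over Control (edgeR adjusted p = 3.81e-06), -0.15 ± 0.035 in WT over Control (edgeR adjusted p = 0.00313) and -0.16 ± 0.036 in IDRmut over WT (edgeR adjusted p = 0.00258). The WT call was lost with library totals only, and the call between the arms without the second WT library. UQCRC2, the other core protein, had 161 and 167 CPM in IDRmut, 142 and 143 CPM in WT, and 158 and 161 CPM in Control. WT lay below both other groups, with a log2 fold change of -0.16 ± 0.039 over Control (edgeR adjusted p = 0.0038), and IDRmut over WT gave 0.20 ± 0.039 (edgeR adjusted p = 0.000818). UQCRQ, a small accessory subunit that binds ubiquinone, went the other way in WT, with 61.6 and 65.2 CPM in IDRmut, 74.1 and 73.9 CPM in WT, and 67.3 and 64.3 CPM in Control. Its log2 fold change was 0.17 in WT over Control (edgeR adjusted p = 0.0126) and -0.22 ± 0.048 in IDRmut over WT (edgeR adjusted p = 0.00241), with 20.8% of its exon bases overlapped by GDF9. UQCR11 and UQCRB, further accessory subunits, were higher in IDRmut than in WT by 0.29 and 0.14 on the log2 scale, and both calls were lost with DESeq2 and without the first WT library. UQCRHL, a retrocopy of UQCRH whose reads cannot be told apart from those of UQCRH with certainty, had 6.58 and 6.64 CPM in IDRmut, 6.47 and 6.32 CPM in WT, and 8.12 and 7.96 CPM in Control. It was called in WT at -0.33, a call kept in 7 of 14 alternatives, while UQCRH itself had -0.14 there (edgeR adjusted p = 0.0548). The Rieske protein UQCRFS1, which passes electrons on to cytochrome c1, was not called in any comparison.

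As grouped here, cytochrome c oxidase, complex IV, held the genes with the largest changes. COX7B2 is a paralogue of COX7B whose expression is best known from testis. It lies on chromosome 4 from 46734827 to 46909235 on the minus strand (GRCh38; ENSG00000170516). It had 137 and 155 counts in IDRmut, 145 and 279 counts in WT, and 9 and 8 counts in Control. The levels were 6.73 and 7.05 CPM in IDRmut, 7.10 and 8.16 CPM in WT, and 0.457 and 0.430 CPM in Control. The gene passed the filter on low counts through the 2 ACK1 groups alone. COX7B2 was 15.4-fold higher in IDRmut than in Control (log2 3.94 ± 0.23; edgeR adjusted p = 9.24e-10) and 17.2-fold higher in WT (log2 4.10 ± 0.22; edgeR adjusted p = 1.59e-10). The IDRmut libraries lay below the WT ones, but the difference between the arms, -0.16 ± 0.12 in IDRmut over WT, did not pass the test (edgeR adjusted p = 0.329). COX7B, the ubiquitous form, had 117 and 121 CPM in IDRmut, 113 and 113 CPM in WT, and 129.8 and 125 CPM in Control, with log2 fold changes of -0.09 (edgeR adjusted p = 0.107) and -0.17 (edgeR adjusted p = 0.00371). Per length, COX7B2 made up 17.7% and 17.9% of the pair's summed level in IDRmut, 19.1% and 21.3% in WT, and 1.30% and 1.28% in Control. Genes near COX7B2 on chromosome 4, chosen after their values were seen, had few counts or no call. GABRA4, upstream of it, had 0 or 1 count in every library and GABRA2 between 3 and 11. CORIN, too low to be tested, had 6 and 3 counts in IDRmut, 7 and 15 in WT, and 1 and 2 in Control. GABRB1 was 2.34-fold higher in WT than in Control, which did not pass (edgeR adjusted p = 0.0884), and COMMD8 was not called.

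The stretches from 250 to 31 bases before the annotated start are shown for 4 genes: COX7B2, which changed most, its partner COX7B, NDUFB10 of complex I, which rose in both arms, and COX6A1 of complex IV, which fell in WT. They are from RefSeq (GRCh38.p14), 5′ to 3′ along the gene. Capitals mark matches to GGGCGG, the core of SP1 sites, and GCATGCGC, part of NRF1 sites, on either strand. COX7B2 is at chr4:46909276-46909495 (minus strand), COX7B at chrX:77899218-77899437, NDUFB10 at chr16:1959288-1959507 and COX6A1 at chr12:120437863-120438082 (plus strand for all 3).
COX7B2: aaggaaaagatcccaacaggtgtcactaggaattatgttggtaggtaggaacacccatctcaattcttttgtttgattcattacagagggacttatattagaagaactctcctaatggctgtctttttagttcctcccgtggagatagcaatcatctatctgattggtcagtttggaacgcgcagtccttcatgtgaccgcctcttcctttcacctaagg
COX7B: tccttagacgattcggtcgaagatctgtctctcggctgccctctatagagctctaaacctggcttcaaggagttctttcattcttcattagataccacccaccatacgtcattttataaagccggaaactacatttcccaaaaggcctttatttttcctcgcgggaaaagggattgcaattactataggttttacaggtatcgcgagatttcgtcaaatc
NDUFB10: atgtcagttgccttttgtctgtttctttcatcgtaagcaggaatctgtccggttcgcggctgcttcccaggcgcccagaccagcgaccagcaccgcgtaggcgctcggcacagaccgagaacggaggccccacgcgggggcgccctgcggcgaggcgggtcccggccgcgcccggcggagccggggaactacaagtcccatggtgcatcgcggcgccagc
COX6A1: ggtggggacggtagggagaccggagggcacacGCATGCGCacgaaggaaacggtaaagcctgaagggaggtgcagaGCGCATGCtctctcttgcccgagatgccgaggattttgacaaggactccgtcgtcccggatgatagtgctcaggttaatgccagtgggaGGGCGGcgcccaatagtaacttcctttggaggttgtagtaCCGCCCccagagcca

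The COX7B2 stretch holds 4 CG pairs, against 11 in COX7B, 27 in NDUFB10 and 15 in COX6A1. The median over the same stretch was 17 in the 71 members matched to the promoter table and 9 in all 27326 promoters. In all, 6 motifs were searched on both strands in the whole windows of 300 bases. GCATGCGC, the inner part of NRF1 sites, was in 13 of 71 member windows (18.3%) and in 3.27% of all promoters. CCGGAAG, the core of ETS sites such as those of GABPA, was in 20 (28.2%, and 10.7% of all), and AAGATGGC, a core of YY1 sites, in 11 (15.5%, and 3.03% of all). GGGCGG was in 43 (60.6%, and 44.6% of all). ACGTG, the core of hypoxia response elements, was in 18 (25.4%, and 21.6% of all), and TTCNNNGAA, the spacing of STAT5 sites, in 6 (8.45%, and 7.88% of all). By complex, CCGGAAG was in 5 of 32 windows of complex I, 3 of 7 of complex III, 5 of 14 of complex IV and 5 of 14 of complex V. COX7B2 and COX7B held none of the 6 motifs in their windows, NDUFB10 held GGGCGG after the stretch shown, and COX6A1 held CCGGAAG there. CCGGAAG and AAGATGGC can share the letters AAG. These are matches of letters only.

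NDUFA4L2 is a paralogue of NDUFA4 known as a target of hypoxia signalling. It had 2.21 and 2.18 CPM in IDRmut, 0.686 and 0.790 CPM in WT, and 1.57 and 1.51 CPM in Control, from 45 and 48 counts in IDRmut, 14 and 27 in WT, and 31 and 28 in Control. The 3 groups did not overlap. IDRmut was 2.92-fold above WT (log2 1.54 ± 0.24; edgeR adjusted p = 0.000132), and WT lay below Control by 1.03 ± 0.27 on the log2 scale (edgeR adjusted p = 0.00582). IDRmut over Control gave 0.51 ± 0.22, which did not pass (edgeR adjusted p = 0.0968). The WT call against Control was lost with DESeq2 (adjusted p = 0.0748). NDUFA4 itself had 147 and 152 CPM in IDRmut, 141 and 141 CPM in WT, and 178 and 163 CPM in Control, and it fell in both arms, by 0.19 ± 0.044 in IDRmut (edgeR adjusted p = 0.00352) and 0.27 ± 0.044 in WT (edgeR adjusted p = 0.000116) on the log2 scale. The IDRmut call was lost without the first Control library. Per length, NDUFA4L2 was at most 1.87% of the pair's level in any library.

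**Figure D2:**
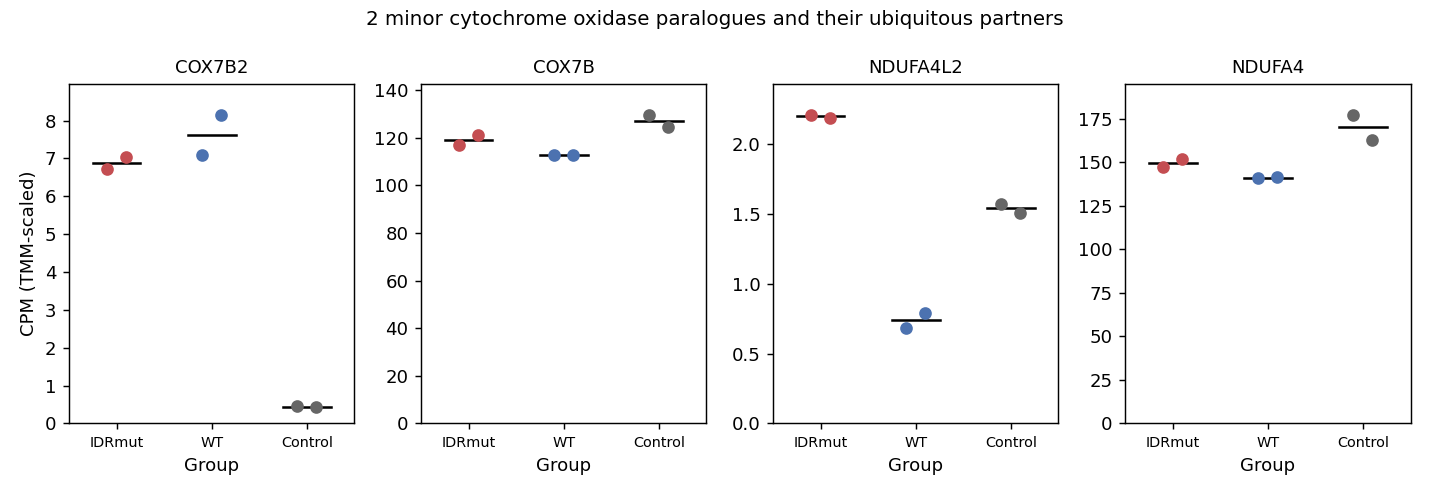
CPM (vertical axes, linear from 0, a scale for each gene) of COX7B2, COX7B, NDUFA4L2 and NDUFA4 in IDRmut, WT and Control; points are the 2 libraries of a group and bars their mean. COX7B2 is near 7 CPM in IDRmut, between 7.10 and 8.16 CPM in WT and below 0.5 CPM in Control, and NDUFA4L2 is highest in IDRmut and lowest in WT.

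The remaining tissue isoforms of complex IV were close to absent. COX6A2, a heart and muscle isoform, had 0 counts in every library, COX4I2 and COX8C had at most 1 count, and COX6B2 and COX7A1 stayed under 0.5 CPM. Of the 14 tested genes 2 rose and 3 fell in IDRmut over Control (14.3% and 21.4%, against 15.6% and 15.9% of all genes). In WT over Control 2 rose and 8 fell (14.3% and 57.1%, against 17.4% and 17.6% of all genes). With library totals only 2 of the 14 rose and 4 fell in WT, where 23.8% of all genes rose and 11.6% fell. The complex's median in IDRmut over Control was then 0.0069 in place of -0.033, while that of all genes was 0.044 in place of 0.0040. COX6A1 had 48.2 and 52.0 CPM in IDRmut, 44.5 and 40.9 CPM in WT, and 54.1 and 52.5 CPM in Control. It fell in WT by 0.33 ± 0.059 on the log2 scale (edgeR adjusted p = 0.000322), was -0.09 in IDRmut (edgeR adjusted p = 0.287), and was higher in IDRmut than in WT by 0.24 ± 0.059 (edgeR adjusted p = 0.00568). COX8A had 115 and 92.3 CPM in IDRmut, 98.6 and 105 CPM in WT, and 119 and 131 CPM in Control. It fell by 0.27 ± 0.075 in IDRmut and 0.29 ± 0.073 in WT, with the widest gap of any member between the 2 IDRmut libraries, and both calls were lost with DESeq2 and without the second Control library. COX6B1, which faces the intermembrane space, fell by 0.16 in either arm, with 92.3 and 91.1 CPM in IDRmut, 93.6 and 90.2 CPM in WT, and 103 and 102 CPM in Control. COX7A2 and COX5B fell in WT over Control, by 0.18 and 0.15, and COX7A2 was higher in IDRmut than in WT by 0.16. The COX5B call was kept in 7 of 14 alternatives. COX6C rose in both arms by 0.14, with 107 and 114 CPM in IDRmut, 112 and 109 CPM in WT, and 101 and 99.8 CPM in Control. Both COX6C calls were lost with DESeq2 and without either Control library. COX4I1, the ubiquitous regulatory subunit, COX5A, COX7C and the supercomplex factor COX7A2L were not called. COX7A2L had 89.1 and 95.4 CPM in IDRmut, 90.0 and 93.2 CPM in WT, and 93.5 and 89.3 CPM in Control.

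In ATP synthase, 0 of 18 tested genes rose in IDRmut over Control by edgeR, by DESeq2 or at an unadjusted edgeR p under 0.05. Of all genes, 15.6% rose by edgeR and 9.29% by DESeq2. With upper-quartile scaling 1 was higher at an unadjusted edgeR p under 0.05, and 1 with library totals only. By edgeR with TMM scaling 2 fell in IDRmut over Control (11.1%, against 15.9% of all genes). In WT over Control 1 rose and 5 fell (5.56% and 27.8%, against 17.4% and 17.6% of all genes). With library totals only 3 of the 18 rose and 2 fell in WT, where 23.8% of all genes rose and 11.6% fell. The complex's median in WT over Control was then 0.053 in place of -0.011, while the median of all genes was 0.066 in place of 0.0017. ATP5F1B had 834 and 819 CPM in IDRmut, 822 and 813 CPM in WT, and 881 and 883 CPM in Control. These libraries did not overlap, but the shift was small, at -0.09 ± 0.032 in IDRmut (edgeR adjusted p = 0.0364) and -0.11 ± 0.032 in WT (edgeR adjusted p = 0.0138), and the IDRmut call was kept in 3 of 14 alternatives and the WT call in 8 of 14. ATP5F1A, the alpha subunit of the catalytic head, had 251 and 254 CPM in IDRmut, 237 and 235 CPM in WT, and 266 and 263 CPM in Control. It fell in WT by 0.16 ± 0.035 on the log2 scale (edgeR adjusted p = 0.0017), and IDRmut over Control gave -0.07 (edgeR adjusted p = 0.165). ATP5F1D, of the rotating central stalk, had 65.8 and 59.1 CPM in IDRmut, 51.6 and 56.6 CPM in WT, and 63.1 and 63.1 CPM in Control, with -0.21 in WT over Control and 0.20 in IDRmut over WT. ATP5MF, a small subunit of the membrane domain, had 36.5 and 38.9 CPM in IDRmut, 39.3 and 39.0 CPM in WT, and 46.0 and 45.1 CPM in Control. It fell by 0.27 ± 0.058 in IDRmut (edgeR adjusted p = 0.00151) and 0.22 ± 0.056 in WT (edgeR adjusted p = 0.00554). ATP5MC3, which encodes the same mature c-ring subunit as ATP5MC1 and ATP5MC2, fell in WT by 0.13 and was higher in IDRmut than in WT by 0.12, calls kept in 6 and 4 of 14 alternatives, and ATP5MC1 and ATP5MC2 were not called. ATP5IF1, the inhibitor that holds back ATP hydrolysis, was the gene of this complex that rose in WT. It had 44.9 and 45.3 CPM in IDRmut, 53.2 and 52.3 CPM in WT, and 42.7 and 45.4 CPM in Control. The log2 fold change was 0.26 ± 0.053 in WT over Control (edgeR adjusted p = 0.00109) and -0.22 ± 0.052 in IDRmut over WT (edgeR adjusted p = 0.00419), and in IDRmut over Control it was 0.04 (edgeR adjusted p = 0.682). The peripheral stalk genes ATP5PB, ATP5PD, ATP5PF and ATP5PO were not called in any comparison.

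**Figure D3:**
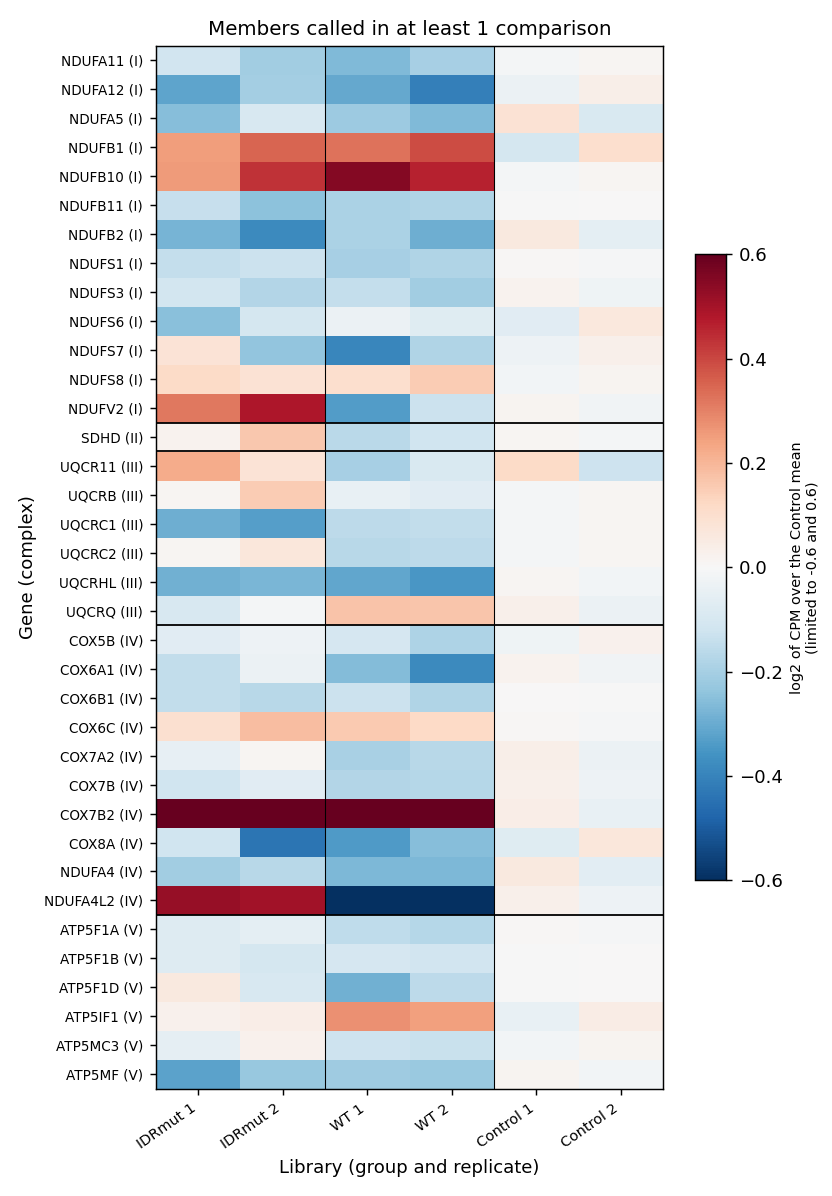
Log2 of CPM over the Control mean (colour, limited to -0.6 and 0.6) for the 36 members called in at least 1 comparison (rows, by complex) in the 6 libraries (columns, IDRmut, WT and Control). Most rows are pale blue in the ACK1 libraries; NDUFB1, NDUFB10, NDUFS8, COX6C and COX7B2 are red in all 4 of them, ATP5IF1 and UQCRQ are red in WT, and NDUFA4L2 and NDUFV2 are red in IDRmut and blue in WT.

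Summed over all members, the level was 95.5% and 97.1% of the Control mean in IDRmut, 94.9% and 94.1% in WT, and 99.8% and 100.2% in Control, on the TMM scale. As a share of raw counts the same sum was 0.647% and 0.659% in IDRmut, 0.655% and 0.649% in WT, and 0.661% and 0.659% in Control, so the gap between groups was much smaller without that scaling. Complex IV was lowest in WT on either scale, with 96.4% and 96.8% of the Control mean in IDRmut, 93.1% and 92.8% in WT, and 99.7% and 100.3% in Control, and 0.138% and 0.138% of raw counts in IDRmut, 0.135% and 0.135% in WT, and 0.139% and 0.139% in Control. For complex I the raw shares were 0.173% and 0.175% in IDRmut, 0.176% and 0.175% in WT, and 0.177% and 0.175% in Control, with WT and Control overlapping. The sums follow the abundant genes, ATP5F1B above all.

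The 13 protein-coding genes of mitochondrial DNA, whose products join the same complexes, had the following values; no test compared them with the nuclear members. In IDRmut over WT 8 of 13 rose and 0 fell by edgeR (61.5% and 0%, against 12.3% and 14.2% of all genes). With DESeq2 6 rose, and none fell with DESeq2 or at an unadjusted edgeR p under 0.05. In IDRmut over Control 5 rose and 1 fell (38.5% and 7.69%, against 15.6% and 15.9% of all genes). In WT over Control 2 rose and 6 fell (15.4% and 46.2%, against 17.4% and 17.6%). Their sum was 4.16% and 4.48% of raw counts in IDRmut, 3.75% and 3.59% in WT, and 3.91% and 4.19% in Control. MT-CO1, the catalytic subunit of complex IV, had 14340 and 14509 CPM in IDRmut, 11852 and 12085 CPM in WT, and 14808 and 15208 CPM in Control, and IDRmut over WT gave 0.27 on the log2 scale. MT-CO3 and MT-CYB, of complexes IV and III, were higher in IDRmut than in WT by 0.37 each. MT-ND2, of complex I, was higher than Control in both arms, by 0.49 in IDRmut and 0.25 in WT. The ratio of the mitochondrial sum to the nuclear sum was 6.43 and 6.80 in IDRmut, 5.72 and 5.53 in WT, and 5.92 and 6.35 in Control, a ratio that no scaling changes. IDRmut lay above WT and Control without overlap, and WT below both. Within complex IV the ratio was 17.7 and 18.3 in IDRmut, 15.1 and 15.1 in WT, and 17.0 and 17.7 in Control, so WT stood apart and IDRmut overlapped Control. For complex I it was 7.05 and 7.97 in IDRmut, 7.25 and 6.61 in WT, and 6.35 and 7.16 in Control, with all groups overlapping. For complex III it was 3.11 and 3.17 in IDRmut, 2.51 and 2.44 in WT, and 2.33 and 2.49 in Control, so IDRmut stood apart there and WT overlapped Control. For complex V it was 1.05 and 1.17 in IDRmut, 0.893 and 0.799 in WT, and 0.902 and 1.05 in Control.

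**Figure D4:**
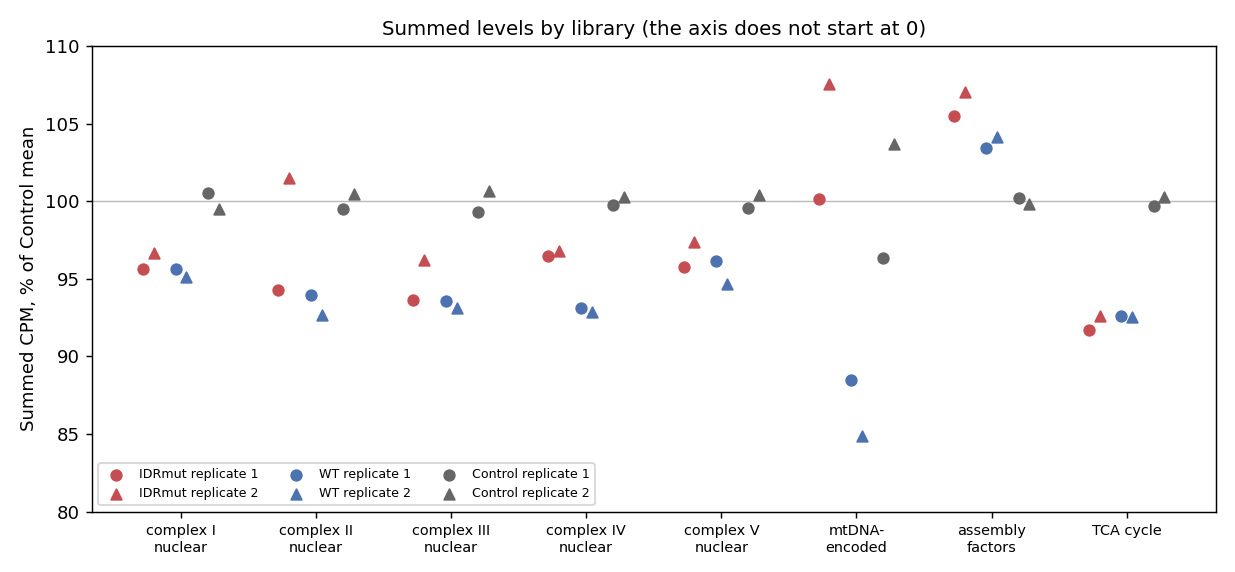
Summed TMM-scaled CPM of each gene set as percent of the Control mean (vertical axis, which does not start at 0) for every library of IDRmut, WT and Control. Nuclear sums lie below Control in WT for each complex on this scale (for complexes I and V they overlap as a share of raw counts), the mitochondrial sum is lowest in WT, and assembly factors lie above Control in both arms.

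Other genes of the pathway were taken from lists by function. Of 49 assembly factors, proteins that build the complexes without staying in them, 47 were tested, and 7 rose and 1 fell in IDRmut over Control, 6 rose and 2 fell in WT over Control, and 4 rose and 2 fell in IDRmut over WT. The shares that rose over Control, 14.9% in IDRmut and 12.8% in WT, were not above the 15.6% and 17.4% of all genes. The shares that fell, 2.13% and 4.26%, were below the 15.9% and 17.6% of all genes. In IDRmut over WT 8.51% rose and 4.26% fell, against 12.3% and 14.2% of all genes. With DESeq2, 2 rose in IDRmut over Control and 5 in WT over Control, where 9.29% and 10.8% of all genes rose. With library totals only these were 12 and 15, where 19.3% and 23.8% of all genes rose. Their median log2 fold change was 0.094 in IDRmut over Control and 0.066 in WT over Control. NDUFAF3, an early complex I assembly factor, had 31.9 and 28.8 CPM in IDRmut, 32.6 and 33.8 CPM in WT, and 21.3 and 22.5 CPM in Control, with log2 fold changes of 0.47 and 0.60. SURF1, needed for complex IV assembly, rose by 0.45 in IDRmut and 0.41 in WT, and NDUFAF8 by 0.53 in WT. As a share of raw counts the list summed to 0.143% and 0.145% in IDRmut, 0.142% and 0.144% in WT, and 0.133% and 0.131% in Control.

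Of 18 genes of the tricarboxylic acid cycle, which supplies NADH and succinate, 0 rose and 7 fell in IDRmut over Control. In WT over Control 0 rose and 8 fell. The lower shares were 38.9% and 44.4%, against 15.9% and 17.6% of all genes. In IDRmut over WT 2 rose and 2 fell (11.1% each, against 12.3% and 14.2% of all genes). None was higher than Control in either arm with DESeq2 or at an unadjusted edgeR p under 0.05, and DESeq2 had 5 lower in IDRmut and 7 lower in WT. Library totals alone gave 0 of 18 higher and 4 lower in IDRmut, where 19.3% of all genes rose and 12.7% fell. In WT they gave 1 higher and 4 lower, where 23.8% of all genes rose and 11.6% fell. Their sum was 0.201% and 0.204% of raw counts in IDRmut, 0.207% and 0.207% in WT, and 0.214% and 0.214% in Control. DLST, of the oxoglutarate dehydrogenase complex, had 106 and 111 CPM in IDRmut, 106 and 104 CPM in WT, and 134 and 132 CPM in Control, with log2 fold changes of -0.29 and -0.34. SUCLA2 and IDH3A fell by 0.28 and 0.29 in IDRmut and by 0.22 and 0.14 in WT.

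Over all genes tested, 15.6% rose and 15.9% fell in IDRmut over Control, and 17.4% and 17.6% in WT over Control. In IDRmut over WT these shares were 12.3% and 14.2%. Among 21 transcriptional regulators of mitochondrial genes, 6 rose and 3 fell in IDRmut over Control (28.6% and 14.3%). In WT over Control 3 rose and 6 fell (14.3% and 28.6%). Between the arms 8 rose and 0 fell in IDRmut over WT (38.1% and 0%). There 10 were higher and 1 lower at an unadjusted edgeR p under 0.05, and 7 and 0 with DESeq2. With library totals only, 3 of the 21 rose and 2 fell in WT over Control, where 23.8% of all genes rose and 11.6% fell. MYC had 156 and 145 CPM in IDRmut, 96.8 and 101 CPM in WT, and 107 and 104 CPM in Control, with 0.51 in IDRmut over Control and 0.60 in IDRmut over WT. HIF1A, the oxygen-regulated factor, rose by 0.32 in IDRmut and 0.15 in WT over Control. GABPA, an ETS factor known for binding respiratory chain promoters, fell by 0.21 in IDRmut and 0.22 in WT, while GABPB2, one of its partners, rose by 0.59 and 0.63. NRF1 fell in WT by 0.22 and was -0.18 in IDRmut (edgeR adjusted p = 0.10). Of 14 import and carrier genes 2 rose and 2 fell in IDRmut over Control (14.3% each), and 1 rose and 3 fell in WT over Control (7.14% and 21.4%). In IDRmut over WT 3 rose and 0 fell (21.4% and 0%), also with DESeq2 and at an unadjusted edgeR p under 0.05. With library totals only, 3 rose and 1 fell in IDRmut over WT, where 10.3% of all genes rose and 16.5% fell. At an unadjusted edgeR p under 0.05, 3 were higher and 3 lower with these totals. In WT over Control 5 of the 14 rose and 2 fell with these totals, where 23.8% of all genes rose and 11.6% fell. SLC25A5, an ADP/ATP carrier, had log2 fold changes of -0.20 in IDRmut and -0.13 in WT over Control. Of 10 tested supercomplex and cristae factors 0 rose and 4 fell in IDRmut over Control (0% and 40%), and 1 rose and 2 fell in WT over Control (10% and 20%). In IDRmut over WT 0 rose and 1 fell (0% and 10%). With DESeq2, 0 rose and 3 fell in IDRmut over Control, none was called in WT over Control, and 0 rose and 1 fell in IDRmut over WT. With library totals only, 1 rose and 3 fell in IDRmut over Control, and 1 rose and 0 fell in WT over Control. In IDRmut over WT 0 rose and 3 fell with these totals, where 10.3% of all genes rose and 16.5% fell. At an unadjusted edgeR p under 0.05, 1 was higher and 4 lower in each arm over Control, and 0 and 3 in IDRmut over WT. HIGD1A, a respiratory supercomplex factor, had log2 fold changes of -0.23 in IDRmut over Control and -0.24 in IDRmut over WT. The last list held 8 genes, electron carriers, related dehydrogenases and the complex III subunit outside the rule. Of these 2 rose and 1 fell in IDRmut over Control (25% and 12.5%), and 1 rose and 1 fell in WT over Control (12.5% each). In IDRmut over WT 0 were called by edgeR or DESeq2, and 2 were higher and 1 lower at an unadjusted edgeR p under 0.05.

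**Figure D5:**
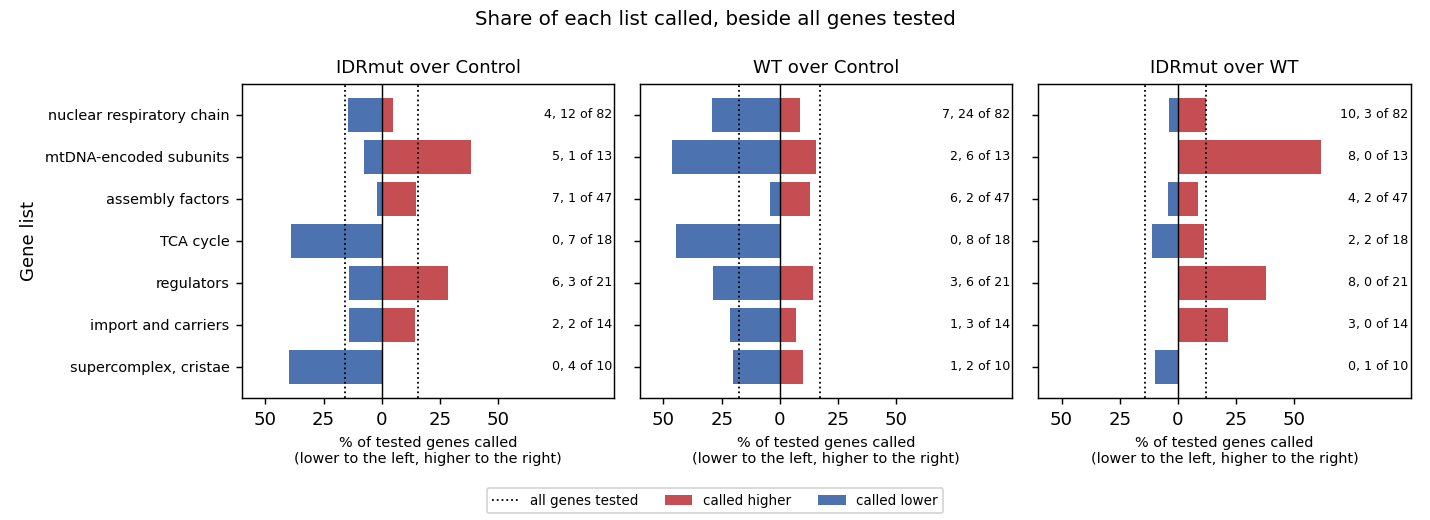
Percent of tested genes called lower (left) and higher (right) in each list for IDRmut over Control, WT over Control and IDRmut over WT; dotted lines are the same shares over all 16591 genes tested, and the figures at the right are the counts higher and lower of those tested. The nuclear members exceed the line for lower genes in WT over Control (with library totals only, 12.2% against 11.6% of all genes) and stay below it for higher genes in both comparisons with Control, and the mitochondrial genes exceed the line for higher genes in IDRmut over WT.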

How the data were processed

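The deposited table holds raw counts per gene for 6 libraries, which the authors made with HISAT2 2.2.1, SAMtools 1.14 and featureCounts 2.0.1 on GRCh38, per the submitters' processing notes. Which annotation and strand setting were used, and how reads with several matches were handled, is not stated in the labels or header; reads of overlapping genes therefore cannot be told apart. Current names matched 61369 IDs and GENCODE release 29 another 105, and 13 had no name. Coordinates, exon lengths and exon overlaps came from GENCODE release 29, which may not be the release the authors used. Of 271 rows with a matching prefix, 181 were not protein-coding, and 175 pseudogene rows summed to between 14.4 and 18.9 CPM per library. SDHA to SDHD were matched as whole symbols, so pseudogenes of these genes are in none of these counts.

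The filter filterByExpr (at least 10 counts, total at least 15) left 16591 genes. A single edgeR 4.0.16 quasi-likelihood fit (R 4.3.3) of group means over all 6 libraries with TMM scaling gave the 3 contrasts, adjusted by Benjamini-Hochberg over all genes tested, and genes were called at an adjusted p under 0.05. The procedure was tested on simulated data. CPM are counts scaled by edgeR's cpm to the TMM library size; ± after a log2 value is the SE. Libraries were amplified by PCR, per the labels' protocols, which mention no molecular identifiers. Sequences came from RefSeq promoters (GRCh38.p14), which matched 71 of 90 members. Alternatives were DESeq2 1.42.0, 2 other scalings, 2 filters, fits of 4 libraries, a replicate block, a length and GC offset, and leaving out each library.

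Named members were, per comparison and complex, up to 3 called in each direction with the smallest adjusted p, the member highest per length in each complex, tissue isoforms with their partners, ATP5IF1, readthrough loci and UQCRHL, and up to 3 genes per other list; other names were chosen after their values were seen. The members and lists were chosen with earlier results of these data known.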

Additional observations from a re-analysis of the deposited data

Results flagged for a closer look

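For 7 members, the change against Control differed between IDRmut and WT by the test of that difference, which is IDRmut over WT in the same fit because both changes share Control, with the 2 changes on opposite sides of 0. None of the 7 was called in IDRmut over Control, and NDUFV2, UQCR11, SDHD and UQCRB were called in neither arm against Control. The side of 0 is uncertain for changes such as 0.042 ± 0.040 for UQCRC2 and -0.054 ± 0.051 for UQCRQ in IDRmut over Control. The differences in log2 fold change, IDRmut minus WT, were 1.54 for NDUFA4L2, 0.61 for NDUFV2, 0.29 for UQCR11, 0.23 for SDHD, 0.20 for UQCRC2, 0.14 for UQCRB and -0.22 for UQCRQ. Of these, NDUFA4L2, SDHD, UQCRC2 and UQCRQ were called in IDRmut over WT under every alternative that tested them. NDUFV2, UQCR11 and UQCRB each lost the call with DESeq2. The lower ACK1 transcript in IDRmut and the mutation cannot be told apart for any of them.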

How the results depend on the processing

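No call of a named member reversed under any alternative. With DESeq2, members called higher and lower were 2 and 7 in IDRmut over Control (2.44% and 8.54%, against 9.29% and 10.5% of all genes). In WT over Control they were 4 and 14 (4.88% and 17.1%, against 10.8% and 11.2%). In IDRmut over WT they were 4 and 3 (4.88% and 3.66%, against 7.15% and 8.14%). With library totals only, 5 rose and 7 fell in IDRmut over Control (6.1% and 8.54%, against 19.3% and 12.7% of all genes), with a median of 0.023. In WT over Control 11 rose and 10 fell (13.4% and 12.2%, against 23.8% and 11.6%), with a median of -0.013. In IDRmut over WT 8 rose and 5 fell (9.76% and 6.1%, against 10.3% and 16.5%), with a median of 0.0077. Upper-quartile scaling gave medians of 0.014 in IDRmut over Control and -0.046 in WT over Control. With the length and GC offset 5 members rose and 21 fell in IDRmut over Control (6.1% and 25.6%, against 19.2% and 18.9% of all genes). In WT over Control 8 rose and 34 fell with that offset (9.76% and 41.5%, against 21.1% and 19.7%). Library totals and upper-quartile scaling move all genes alike, and the causes of the other shifts were not tested. Leaving out each library in turn gave 2 to 8 higher and 5 to 19 lower in IDRmut over Control, 3 to 8 higher and 10 to 35 lower in WT over Control, and 4 to 14 higher and 2 to 8 lower in IDRmut over WT; where a group kept 1 library, that library is assumed to vary like the other groups. The correlation of same-numbered deviations was between -0.029 and -0.021 across all genes, and between -0.296 and -0.16 across members. These values cannot show whether same-numbered libraries were prepared together. With the replicate block, 4 rose and 9 fell in IDRmut over Control, 6 and 22 in WT over Control, and 9 and 3 in IDRmut over WT. Of 60 tested member calls that were recomputed, 25 fell short with DESeq2 and 26 without the first Control library. Members with few counts in some libraries, such as NDUFA7, NDUFA4L2, NDUFV2 and COX7B2, have wide errors.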
